A study of Homo sapiens with 18 samples.

Results

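Transfer RNAs for glycine were followed through small RNA libraries from HEK293T cells and the extracellular vesicles these cells release. The members are the 38 entries of the deposited table whose names begin with tRNA-Gly-, out of 2462 features and 622 tRNA entries. They carry 4 anticodons in their names: 12 have CCC, 15 have GCC, 9 have TCC and 2 have CAC. In these names the first number marks the isodecoder, a tRNA body that differs in sequence from others with the same anticodon, and the second number marks the gene copy. Of the 38 entries, 31 carry isodecoder numbers, in 16 isodecoder groups, and 7 are named only by chromosome 1 and a running number. HEK293T is an established human embryonic kidney line. It was used as wild type, as an ATG7-/- line (clone F2) and as an ATG12-/- line (clone D9), so each knockout is 1 clone and clone and genotype cannot be told apart. All cells were serum starved for 24 h, the wild-type controls included, and RNA was taken from the vesicles and from the cells. This gave 6 groups of 3 libraries, numbered as biological replicates. The labels do not say whether the replicates came from separate cultures, so p-values measure the spread between these libraries. The ATG7 and ATG12 transcripts were not analysed here, as the table covers small RNAs.

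The anticodon is the base triplet of a tRNA that pairs with the codon on the messenger RNA. GCC reads the glycine codons ending in C or U, CCC reads the codon ending in G, and TCC (UCC in the RNA) reads codons ending in A and G. Glycyl-tRNA synthetase charges all of them with glycine. CAC is ordinarily the anticodon of a valine tRNA, so these entries carry a valine anticodon under a glycine name. In vesicles and body fluids, 5′ fragments of glycine tRNAs, of GCC above all, are known to be among the most abundant small RNAs, and such fragments cannot be told from whole tRNAs in these values. ATG7 and ATG12 act in the conjugation of LC3, the step that lipidates LC3-family proteins in autophagy and in the secretion pathways that use them.

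The unit throughout is the normalised read: reads of an entry divided by 1 size factor per library. Summed over all features, cell libraries held 1188388 to 1804089 reads and vesicle libraries 1881080 to 3382605. Depth thus moved with the compartment, and its part in the vesicle-to-cell differences was not tested. These totals and the shares in this paragraph add every gene copy, so a read counted on more than 1 copy enters more than once. Glycine tRNAs made up 18.8% ± 0.398 of tRNA reads in wild-type cells (SD, n = 3), 17.4% ± 1.25 in ATG7-/- cells and 18.6% ± 0.654 in ATG12-/- cells. In vesicles their part of tRNA reads was 6.82% ± 0.758, 6.20% ± 0.332 and 6.74% ± 0.280 in the same order of genotypes. The share of glycine among tRNA reads was thus lower in all 9 vesicle libraries than in all 9 cell libraries. Against all reads, glycine tRNAs took 3.44% ± 0.761 of wild-type, 4.97% ± 0.400 of ATG7-/- and 3.97% ± 0.302 of ATG12-/- vesicle reads. Wild-type vesicle replicate 1 stood apart, with 2.57% against 3.98% and 3.78% in the other 2 wild-type vesicle libraries. Less RNA per vesicle or cell and fewer vesicles or cells cannot be told apart in bulk libraries. A set of 10 microRNAs known from blood, liver and muscle, led by miR-486-5p in vesicles, summed to 101 to 143 normalised reads in wild-type vesicles, 196 to 276 in ATG7-/- vesicles and 256 to 336 in ATG12-/- vesicles. In cells they summed to 12.4 to 14.7, 28.0 to 45.0 and 9.01 to 16.8, and of the 10 a total of 4, 5 and 4 were at 0 in all 3 libraries of a group, the blood microRNAs miR-142-3p and miR-142-5p in every one of them. Of the 10, miR-1-3p went the other way and was higher in cells than in vesicles in every genotype. It read 14.8, 37.7 and 27.1 in ATG7-/- cells, the largest part of their sum. In ATG7-/- vesicles it read 7.91, 5.84 and 7.96. In both knockouts miR-192-5p overlapped between cells and vesicles. The part of these microRNAs in the knockout differences was not tested.

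By gene symbol, RefSeq (GRCh38.p14) placed 27 of the 38 entries, and those genes are 71 or 72 bp long, so that levels of different entries stand on an almost equal length. Of the 27, 14 lie on chromosome 1, 4 on chromosome 16, 3 each on chromosomes 2 and 17, and 1 each on chromosomes 6, 19 and 21. A run of 12 members fills chr1:161440171-161531184, with 6 TCC and 6 GCC genes. From Gly-TCC-4-1 to Gly-TCC-2-5 the 2 anticodons alternate gene by gene, with gaps of 3021 to 4219 bp. Gly-GCC-4-1, Gly-GCC-2-1 and Gly-TCC-2-6 close the run after wider gaps. By GENCODE v29, the genes from Gly-TCC-4-1 to Gly-TCC-2-5 lie in introns of the long non-coding RNA AL592295.3, Gly-GCC-2-1 overlaps an exon of FCGR2A, and Gly-TCC-2-6 lies in an intron of AL590385.2. None of the located CCC genes belongs to this run. Gly-CCC-2-1 (chr2:70248991-70249061) and Gly-CCC-2-2 (chr16:636736-636806) lie in no annotated gene. Gly-CCC-1-2 (chr1:16861921-16861991) is in a CROCC intron, and Gly-CCC-7-1 (chr2:11551701-11551772) is in a GREB1 intron and is a pseudogene in RefSeq.

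Many copies of an isodecoder carried nearly the same value in a library. In wild-type vesicle replicate 1 the GCC-1 copies held 3273, 3274, 3275, 3276 and 3280 reads. Copies this close cannot be taken as separate measurements, so counts of called entries repeat them. The sources used here do not give the rule for reads that fit more than 1 copy, so values of single copies are uncertain. The copy with the highest mean over the 18 libraries stands for each isodecoder below. In wild-type vesicles the highest entries were Gly-GCC-2-6 at 7509 ± 1088 normalised reads (SD, n = 3), Gly-GCC-1-3 at 5433 ± 617, Gly-CCC-2-2 at 4949 ± 482, Gly-TCC-2-6 at 3912 ± 923, Gly-TCC-3-1 at 3494 ± 976 and Gly-TCC-1-1 at 3425 ± 957. All 3 libraries of Gly-GCC-2-6 lay above those of Gly-GCC-1-3, and these lay above every TCC value. Gly-CCC-2-2 overlapped with Gly-GCC-1-3 and with Gly-TCC-2-6, and the 3 TCC entries overlapped with each other. In wild-type cells the order was another: Gly-GCC-1-3 stood at 3495 ± 290.4, Gly-TCC-2-6 at 3184 ± 103, Gly-CCC-6-1 at 3042 ± 51.7 and Gly-CAC-chr1-17 at 1760.5 ± 57.9. Of these, Gly-TCC-2-6 overlapped with both Gly-GCC-1-3 and Gly-CCC-6-1, and Gly-CAC-chr1-17 lay below all 3. Gly-CCC-6-1 and Gly-CAC-chr1-17, among the highest in cells, read only 174 ± 21.9 and 63.2 ± 8.97 in vesicles.

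**Figure D1:**
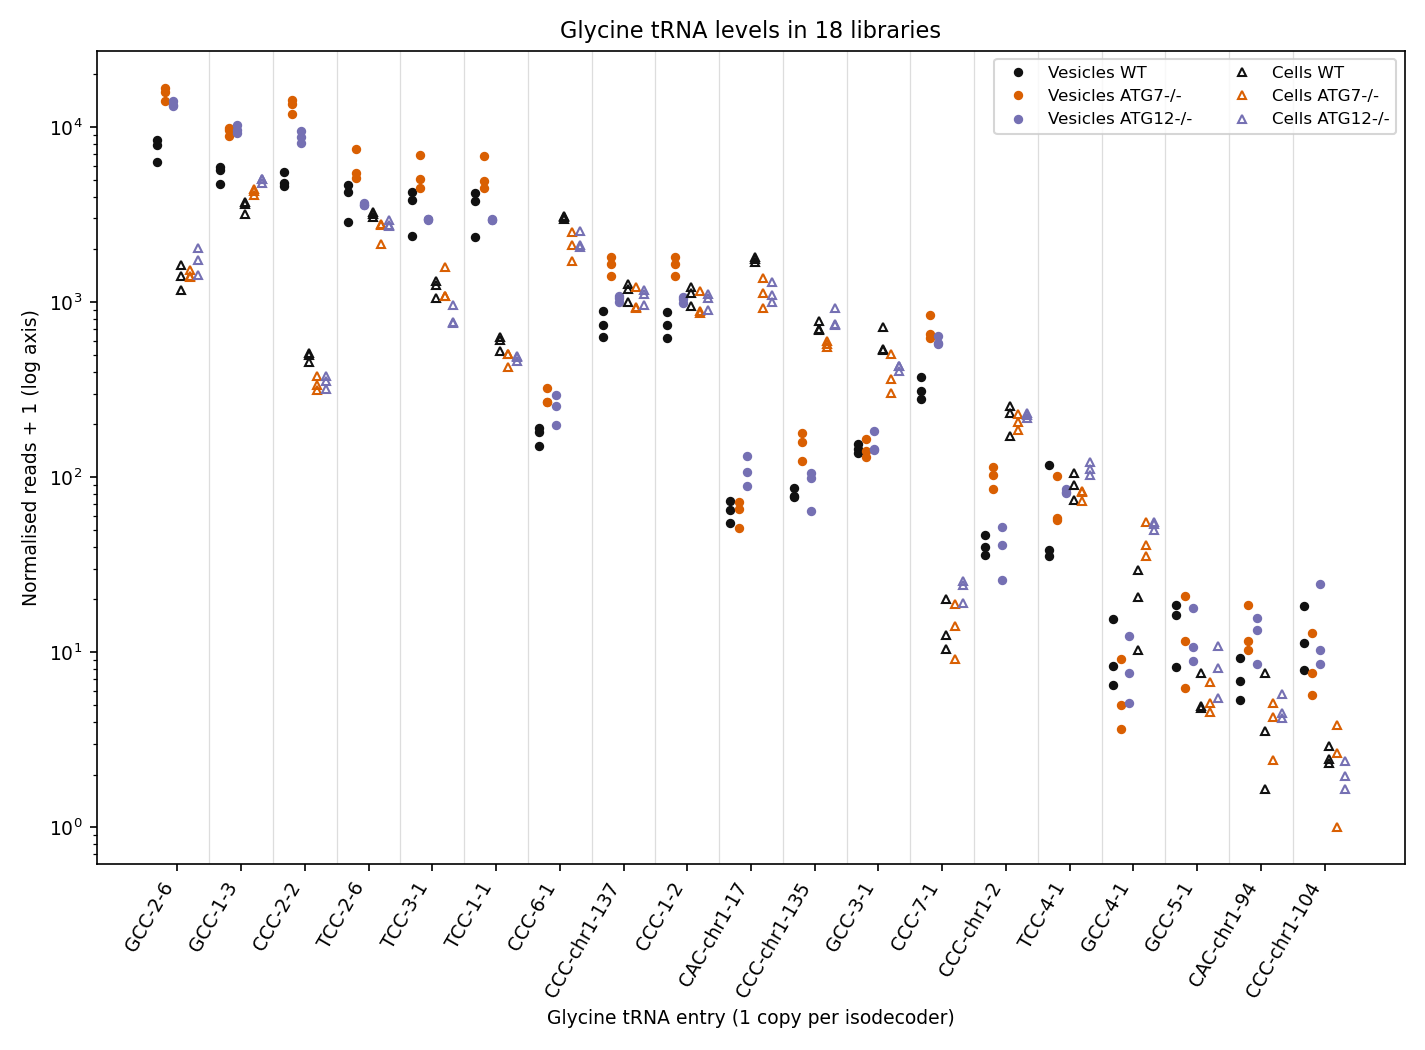
Normalised reads of the glycine tRNA isodecoders (1 copy each) in the 18 libraries, on a log axis of value + 1; each point is a library, with colours for genotype and separate marks for vesicles and cells. The GCC-2, CCC-2 and CCC-7 points of vesicles lie above those of cells, and the CCC-6 and CAC-chr1-17 points lie below them.

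Vesicles were compared with cells within each genotype, to ask which glycine tRNAs were over- or under-represented in vesicle RNA. The test was limma on log2(value + 1), over all 905 features with 10 or more normalised reads in at least 3 libraries. Fold changes of low entries are understated on this scale. An entry was called at a Benjamini-Hochberg adjusted p under 0.05, two-sided, over all features tested. Of the 34 members tested, 23 were higher and 9 lower in wild-type vesicles, against 38.9% and 42.9% of all features. The median log2 fold change of the members was 1.10, against -0.13 over all features. Of GCC entries 12 of 14 were higher and 2 lower, of TCC entries 7 of 9 were higher and 1 lower, and of CCC entries 4 of 9 were higher and 5 lower. Of the 34, 4 reached the minimum in vesicles or in cells alone and entered the test through the compartment where they were higher. Among the other 30, 21 were higher and 8 lower. The CCC genes thus split between both ends of the scale.

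Gly-CCC-2-2 showed 455, 497 and 512 normalised reads in the 3 wild-type cell libraries and 4582, 5495 and 4769 in wild-type vesicles. Every vesicle library lay far above every cell library, and the log2 fold change was 3.34 ± 0.13 (SE; limma adjusted p = 3e-16). Gly-CCC-7-1 showed 11.5, 19.1 and 9.49 in wild-type cells and 370.0, 278 and 311 in vesicles. This RefSeq pseudogene had the largest vesicle excess of the 34 members, 4.53 ± 0.25. Gly-CCC-6-1 went the other way, with 2987, 3052 and 3088 in wild-type cells and 149, 191 and 181 in vesicles. Its log2 fold change was -4.13 ± 0.16 (limma adjusted p = 4.4e-16). Gly-CCC-chr1-135 and Gly-CCC-chr1-2 were also lower in vesicles, at -3.17 and -2.42. Gly-CCC-1-2 differed less, with 1128, 1216 and 946 in cells and 622, 877 and 737 in vesicles, a log2 fold change of -0.56 ± 0.16. In ATG7-/- lines this gene was higher in vesicles, at 0.74 ± 0.16, a sign that turned to -1.24 under scaling by total reads.

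Among GCC genes, Gly-GCC-2-6 (chr17:8125746-8125816) read 1399.6, 1633 and 1163 in wild-type cells and 6294, 8391 and 7843 in vesicles. The groups did not overlap, and the log2 fold change was 2.43 ± 0.15 (limma adjusted p = 2.3e-12). Gly-GCC-1-3 (chr1:161458108-161458178) read 3705, 3616 and 3164 in wild-type cells and 4734, 5904 and 5661 in vesicles. Its excess in vesicles was smaller, 0.63 ± 0.13, and turned to -0.88 when libraries were scaled by their total reads. Gly-GCC-3-1 (chr16:70778211-70778281) read 538, 721 and 528 in wild-type cells and 136, 153 and 144 in vesicles, so this gene was lower in vesicles by a log2 fold change of -2.02 ± 0.18. It lies in a VAC14 intron, 757 bp from Gly-GCC-2-4, which was higher in vesicles at 2.09. The entries of these neighbours thus stood on opposite sides. In wild-type vesicle replicate 1, Gly-GCC-2-4 held 2145 reads and Gly-GCC-2-2, on chromosome 2, held 2137. The value of Gly-GCC-2-4 can therefore not be assigned to this position alone.

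Among TCC genes, Gly-TCC-1-1 (chr19:4724070-4724141, in a DPP9 intron) read 633, 602 and 527 in wild-type cells and 2346, 4171 and 3757 in vesicles. Its log2 fold change was 2.50 ± 0.18 (limma adjusted p = 2e-11). Gly-TCC-3-1 (chr17:8221548-8221619, in a LINC00324 intron) was higher by 1.50, which became -0.016 under scaling by total reads. Gly-TCC-2-6 (chr1:161531113-161531184) read 3197, 3281 and 3076 in wild-type cells and 2872, 4636 and 4226 in vesicles. These groups overlapped, with a log2 fold change of 0.27 ± 0.17 (limma adjusted p = 0.15). Copies Gly-TCC-2-2 to Gly-TCC-2-5 differed from it, at 1.10 to 1.11, and read lower in cells, but all 4 turned negative under scaling by total reads. Gly-TCC-2-1 read lower still in cells, with means of 1210 in wild-type cells and 3821 in wild-type vesicles. The result for TCC-2 thus depends on the copy that stands for it. Without wild-type vesicle replicate 1, Gly-TCC-2-6 was called higher too (0.48, limma adjusted p = 0.0086). Gly-TCC-4-1 was lower at -0.71 ± 0.31, but its call was lost without wild-type vesicle replicate 1 or 2 or wild-type cell replicate 1 or 3.

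Gly-CAC-chr1-17 had the largest deficit in vesicles. It read 1768, 1699 and 1814 in wild-type cells and 63.6, 71.9 and 54.0 in wild-type vesicles, a log2 fold change of -4.79 ± 0.18 (limma adjusted p = 1.7e-16). The other CAC entry, Gly-CAC-chr1-94, read at most 17.5 normalised reads in any library.

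In both knockouts members again lay on both sides. In ATG7-/- lines 27 of 34 members were higher in vesicles and 6 lower, against 40% and 42.8% of all features. In ATG12-/- lines 23 were higher and 6 lower, against 39.2% and 41.1%. Among the 30 members that reached the minimum in both compartments, 24 were higher and 5 lower in ATG7-/- and 21 and 5 in ATG12-/-. Gly-CCC-2-2 stood at 5.26 ± 0.13 in ATG7-/- and 4.65 ± 0.13 in ATG12-/-, Gly-CCC-7-1 at 5.70 and 4.72, and Gly-GCC-2-6 at 3.43 and 2.99. Gly-CCC-6-1 stood at -2.88 and -3.18, and Gly-CAC-chr1-17 at -4.17 and -3.38. With libraries scaled by total reads the median over all features shifted by -1.45 in wild type, -1.91 in ATG7-/- and -2.07 in ATG12-/-, and the members called higher dropped to 9, 11 and 10. Of all calls, the part that was higher went from 47.6% to 19.4%, from 48.3% to 17.7% and from 48.8% to 14.3%. The 9 members still higher in wild-type vesicles were both CCC-2 copies, Gly-CCC-7-1, Gly-GCC-2-1, Gly-GCC-2-2, Gly-GCC-2-4, Gly-GCC-2-5, Gly-GCC-2-6 and Gly-TCC-1-1.

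**Figure D2:**
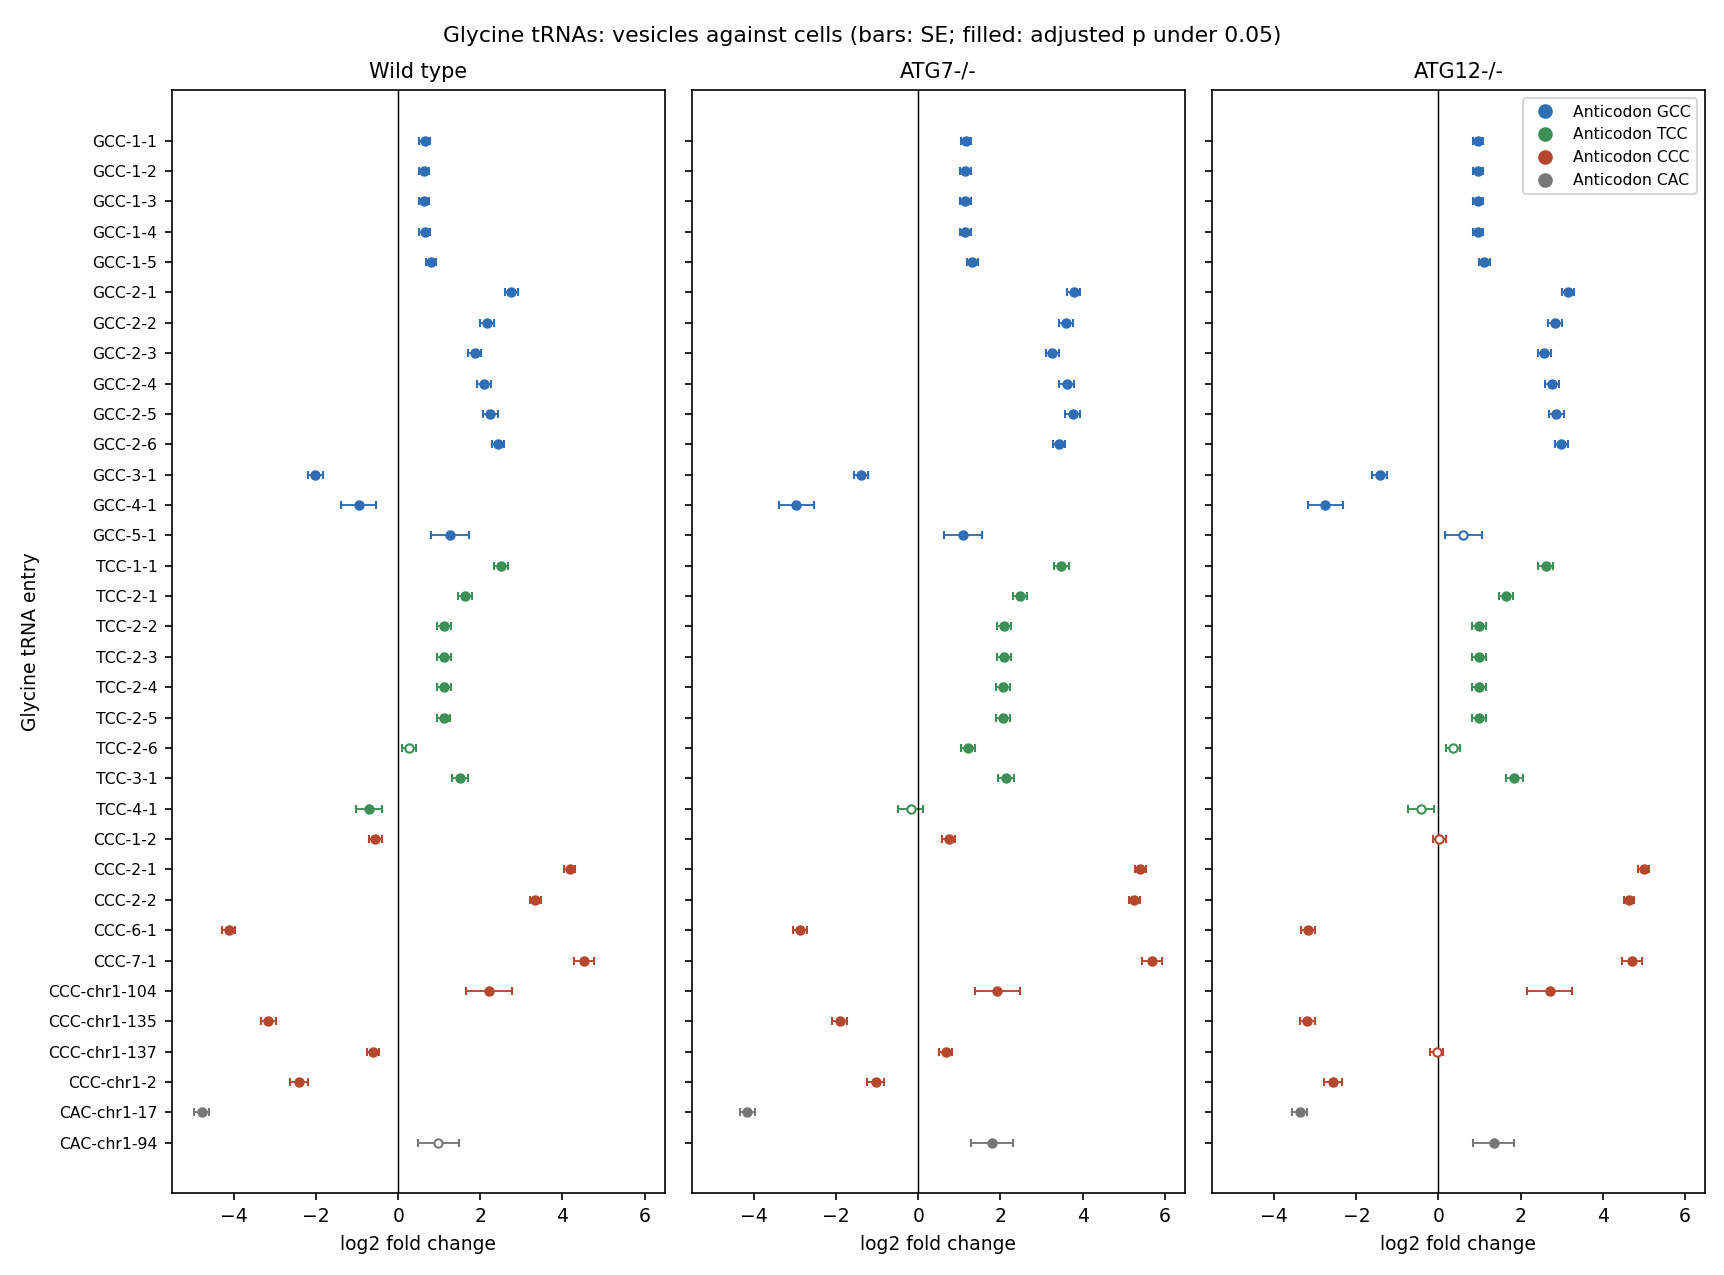
Log2 fold change of vesicles over cells for the 34 tested glycine tRNA entries in wild type, ATG7-/- and ATG12-/-; bars are SE, filled points have an adjusted p under 0.05, and colours mark the anticodon (blue GCC, green TCC, red CCC, grey CAC). The CCC entries lie on both sides of 0 in every genotype, while the GCC-2 entries all lie above it.

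The next comparison asks how the loss of ATG7 changed glycine tRNAs in vesicles. Of the 33 members tested among 850 features, 27 were higher and 0 lower in ATG7-/- than in wild-type vesicles, against 33.5% and 28.9% of all features. In 28 the libraries of the groups did not overlap, as in 68% of all features. By limma, 0 members were also lower at an unadjusted p under 0.05, and edgeR and DESeq2 on the recovered reads called 27 higher and 0 lower each. The median log2 fold change was 0.80 for the members and 0.11 over all features. By anticodon, 8 of 9 CCC entries rose with a median of 1.13, 11 of 13 GCC entries with 0.81 and 8 of 9 TCC entries with 0.64. Neither CAC entry was called.

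Gly-CCC-2-2 showed 14194, 13452 and 11868 normalised reads in ATG7-/- vesicles, against the 4582, 5495 and 4769 of wild-type vesicles. All 3 knockout libraries lay above every wild-type library, and the log2 fold change was 1.41 ± 0.11 (limma adjusted p = 2.3e-07). Gly-CCC-1-2 rose from 622, 877 and 737 to 1804, 1658 and 1404, a log2 fold change of 1.13 ± 0.14. Gly-CCC-chr1-137 carried nearly the same value as Gly-CCC-1-2 in each library and rose by 1.12. Gly-CCC-7-1 rose from 370.0, 278 and 311 to 837, 655 and 621, or 1.14 ± 0.15. Entries that are scarce in vesicles rose as well: Gly-CCC-chr1-2 by 1.30 ± 0.25, Gly-CCC-chr1-135 by 0.92 ± 0.21 and Gly-CCC-6-1 by 0.71 ± 0.17. The CCC rise therefore spanned genes enriched in vesicles and genes depleted from them.

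Gly-GCC-2-6 showed 16743, 15744 and 14147 in ATG7-/- vesicles, all above its 6294, 8391 and 7843 in wild type. Its log2 fold change was 1.06 ± 0.12 (limma adjusted p = 4.4e-06). Gly-GCC-1-3 rose from 4734, 5904 and 5661 to 9919, 9561 and 8876, a log2 fold change of 0.80 ± 0.11. The scarce Gly-GCC-3-1 read 136, 153 and 144 in wild-type and 164, 140.1 and 130.0 in ATG7-/- vesicles, with a difference of -0.01 ± 0.16 (limma adjusted p = 0.98). Its libraries overlapped, unlike those of the abundant GCC genes.

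TCC entries rose less and spread more. Gly-TCC-1-1 read 2346, 4171 and 3757 in wild-type and 6806, 4938 and 4456 in ATG7-/- vesicles. Gly-TCC-2-6 read 2872, 4636 and 4226 and 7437, 5490.0 and 5089.8. In both, replicate 1 was the lowest wild-type and the highest knockout library. The log2 fold changes were 0.68 ± 0.20 (limma adjusted p = 0.009) and 0.63 ± 0.18 (limma adjusted p = 0.0068), and Gly-TCC-3-1 rose by 0.67 ± 0.20, a call lost without ATG7-/- vesicle replicate 1. Under scaling by total reads all 8 TCC calls and that of Gly-CCC-6-1 were lost, with Gly-TCC-1-1 at 0.30 and Gly-TCC-2-6 at 0.25, and the other 18 members stayed higher. That scaling shifted the median over all features by -0.36 and took the part of calls that was higher from 53.7% to 31.9%. Gly-TCC-4-1 read 37.6, 34.6 and 117 in wild-type and 100.2, 57.2 and 55.7 in ATG7-/- vesicles and was not called at 0.35 ± 0.38. Without its highest wild-type library, replicate 3, it was called at 0.91.

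The ATG12 comparison uses the same 3 wild-type vesicle libraries as the ATG7 comparison. Here 18 of 33 members were higher and 0 lower, against 22.6% and 21.1% of all features, and 18 did not overlap, as in 52.7%. edgeR and DESeq2 also called 18 higher and 0 lower, and no member was lower at an unadjusted p under 0.05 by limma. The median was 0.61, against 0.05 over all features. GCC entries rose in 11 of 13, with a median of 0.84, and CCC entries in 6 of 9, with 0.49. TCC entries rose in 0 of 9, with -0.10. Of the CAC entries, 1 of 2 rose.

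Gly-GCC-1-3 showed 10202, 9596 and 9185 normalised reads in ATG12-/- vesicles, all above wild type, with a log2 fold change of 0.84 ± 0.11 (limma adjusted p = 4.8e-05). Gly-GCC-2-6 showed 14149, 13378 and 13159.6 and a log2 fold change of 0.86 ± 0.12. Gly-CCC-2-2 showed 8109.9, 8779 and 9422, between the wild-type and the ATG7-/- libraries, at 0.83 ± 0.11. Gly-CCC-7-1 was at 0.92 ± 0.15 and Gly-CCC-1-2 at 0.49 ± 0.14. The calls of Gly-CCC-1-2, Gly-CCC-chr1-137 and Gly-CCC-6-1 were lost with microRNA factors, with total reads and without ATG12-/- vesicle replicate 2, which left 3 CCC entries called. Gly-CCC-1-2 then stood at 0.37, 0.13 and 0.46. Gly-CCC-6-1 also lost its call with factors from all features and without wild-type vesicle replicate 1 or 3 or ATG12-/- vesicle replicate 3. Gly-CAC-chr1-17 showed 88.2, 106 and 130.1, all above both other vesicle groups, at 0.76 ± 0.21 (limma adjusted p = 0.0093). It lost its call with total reads, and without ATG12-/- vesicle replicate 3, at 0.62.

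The ATG12-/- vesicles held TCC tRNAs in a narrow band. Gly-TCC-1-1 read 2959, 2924 and 2925, inside the wild-type range, and Gly-TCC-2-6 read 3566, 3568 and 3671. Their differences from wild type were -0.18 ± 0.20 and -0.09 ± 0.18 (limma adjusted p = 0.48 and 0.7). These values turn on wild-type vesicle replicate 1: without it Gly-TCC-1-1 was called lower at -0.43 and Gly-TCC-3-1 at -0.45. Scaling by total reads called the same 2 entries lower, at -0.54 and -0.55, and left 10 members higher. The part of all calls that was higher fell from 51.8% to 22.0% under it, to 40.9% with factors from all features and to 39.7% with factors from microRNAs. With 2 vesicle libraries of wild type left, Gly-TCC-4-1 was called higher at 1.16 without replicate 3.

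**Figure D3:**
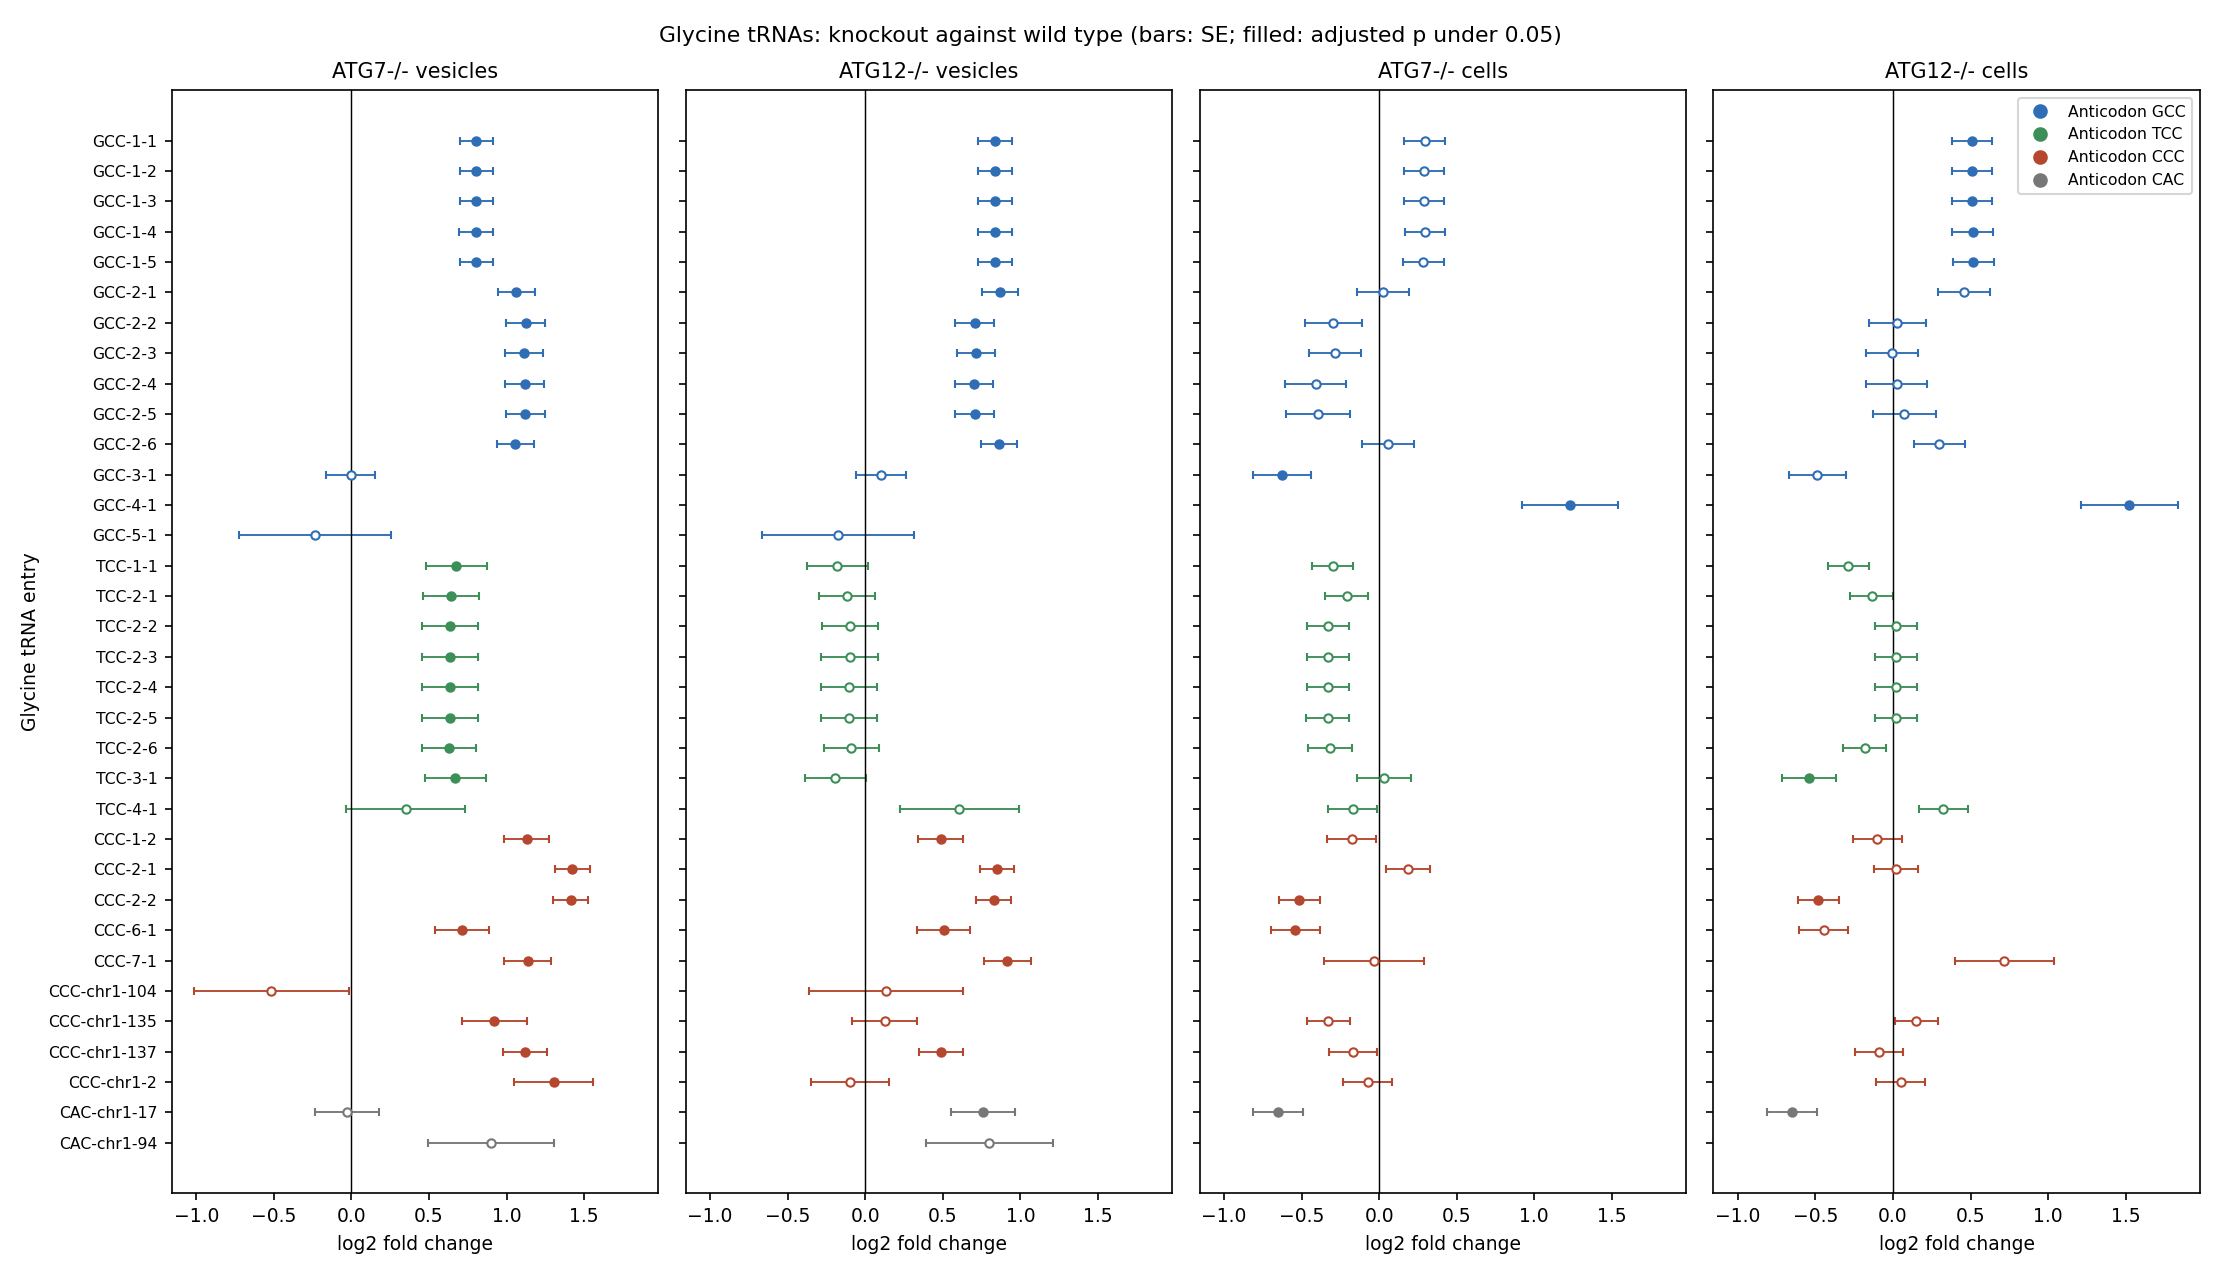
Log2 fold change of knockout over wild type for glycine tRNA entries, in vesicles and in cells; bars are SE, filled points have an adjusted p under 0.05, and colours mark the anticodon (blue GCC, green TCC, red CCC, grey CAC). In vesicles the 11 entries of GCC-1 and GCC-2 lie at 0.80 to 1.12 in ATG7-/- and at 0.70 to 0.87 in ATG12-/-, while the 8 entries of TCC-1, TCC-2 and TCC-3 lie at 0.63 to 0.68 in ATG7-/- and at -0.19 to -0.09 in ATG12-/-.

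The difference between the knockouts was tested directly. In ATG12-/- against ATG7-/- vesicles 18 of 33 members were lower and 1 higher, against 23.3% and 26.6% of all features. The lower ones were 8 of 9 TCC, 6 of 9 CCC and 4 of 13 GCC entries. Gly-TCC-1-1 differed by -0.85 ± 0.20 (limma adjusted p = 0.0031) and Gly-TCC-2-6 by -0.72 ± 0.18 (limma adjusted p = 0.0044). Gly-CCC-chr1-2 had the largest difference of the members, with 113, 102 and 84.9 in ATG7-/- and 24.8, 39.8 and 50.9 in ATG12-/- vesicles, or -1.40 ± 0.25. Gly-CCC-2-2 differed by -0.59 ± 0.11. Of the GCC genes, copies Gly-GCC-2-2 to Gly-GCC-2-5 differed by -0.42 to -0.40, while Gly-GCC-1-3 stood at 0.03 ± 0.11 and Gly-GCC-2-6 at -0.19 ± 0.12, neither called. The 1 higher entry was Gly-CAC-chr1-17, at 0.79 ± 0.21. The lower calls stayed 18 under scaling by total reads, and fell to 14 without ATG7-/- vesicle replicate 1 or ATG12-/- vesicle replicate 2, where all 4 GCC calls were lost. Without ATG12-/- vesicle replicate 1 that of Gly-GCC-2-3 was lost.

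In cells the same contrasts called members about as often as features at large when both directions are added. By direction, members of ATG12-/- cells were called higher more often and lower less often, and 5 of the 6 higher ones were copies of GCC-1. In ATG7-/- cells 1 of 31 members was higher and 4 lower among 853 features, against 8.44% and 8.32% of all features, and in ATG12-/- cells 6 were higher and 3 lower, against 7.5% and 18.2%. The medians were -0.21 and 0.02, against -0.09 and -0.13 over all features. Both contrasts share the wild-type cell libraries. Gly-GCC-4-1, the entry that rose in both, read 19.7, 9.24 and 28.5 in wild-type, 34.6, 40.1 and 54.3 in ATG7-/- and 52.8, 54.4 and 48.9 in ATG12-/- cells. The log2 fold changes were 1.23 ± 0.31 (limma adjusted p = 0.018) and 1.52 ± 0.31 (limma adjusted p = 0.0044). Its ATG7-/- call was lost without wild-type cell replicate 2 and without ATG7-/- cell replicate 3, at 0.81 and 1.05. The 5 copies of GCC-1 were the other entries that rose in ATG12-/- cells. Gly-GCC-1-3 read 3705, 3616 and 3164 in wild-type, 4087, 4431 and 4293 in ATG7-/- and 4796, 5042 and 5052 in ATG12-/- cells, with 0.29 ± 0.13 (limma adjusted p = 0.14) and 0.51 ± 0.13 (limma adjusted p = 0.014).

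Lower in cells were Gly-CAC-chr1-17 and Gly-CCC-2-2 in both knockouts. Gly-CAC-chr1-17 read 1365, 1119 and 923 in ATG7-/- and 1089, 999 and 1299 in ATG12-/- cells, all below wild type, at -0.65 ± 0.16 and -0.65 ± 0.16. Gly-CCC-2-2 read 315, 336 and 375 and 319, 375 and 354, at -0.51 ± 0.13 and -0.48 ± 0.13. Its twin copy Gly-CCC-2-1 stood at 0.19 ± 0.14 and 0.02 ± 0.14 and was not called, and neither was the mean of the 2 copies, at -0.23 and -0.29. The Gly-CCC-2-2 calls were lost in both knockouts with total reads and without wild-type cell replicate 2 or 3, and in ATG12-/- also by edgeR and DESeq2 and without ATG12-/- cell replicate 1 or 3. Gly-CAC-chr1-17 lost its call in ATG7-/- without wild-type cell replicate 1 or 3 and in ATG12-/- without ATG12-/- cell replicate 2. Gly-CCC-6-1 and Gly-GCC-3-1 were lower in ATG7-/- cells at -0.54 ± 0.16 and -0.63 ± 0.19, and both calls were lost without any 1 of the wild-type cell replicates or without ATG7-/- cell replicate 3, and that of Gly-GCC-3-1 also without replicate 2. Gly-TCC-3-1 was lower in ATG12-/- cells at -0.54 ± 0.18, a call that edgeR and DESeq2 did not make and that was lost without wild-type cell replicate 1 or 2 or ATG12-/- cell replicate 1 or 3. The counts of cell calls moved with single libraries. Without wild-type cell replicate 1, 2 or 3, lower calls in ATG7-/- cells went from 4 to 1, 1 and 0, and without ATG7-/- cell replicate 3 to 2. Higher calls in ATG12-/- cells went from 6 to 1 without wild-type cell replicate 3, and to 1 without ATG12-/- cell replicate 2 or 3. Lower calls in ATG12-/- cells went from 3 to 1 without wild-type cell replicate 2 or ATG12-/- cell replicate 1 or 3, and to 5 without ATG7-/- cell replicate 1 or 3. With factors from microRNAs, 20 members were lower in ATG7-/- cells, and the median of all features moved by -0.44. The part of all calls that was higher was 50.3% in ATG7-/- cells, 61.9% with total reads and 4.71% with microRNA factors. In ATG12-/- cells it was 29.2%, then 62.7%, 7.46% and, with factors from all features, 41.5%.

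Whether a knockout moved vesicles differently from cells was tested as the vesicle change minus the cell change over all 18 libraries. For ATG7 the difference was positive and called for 28 of 34 members and negative for 1, against 26.3% and 28.7% of all features. For ATG12 it was positive for 6 and negative for 1, against 14.4% and 12%. Gly-CCC-2-2 had the largest value for ATG7, 1.93 ± 0.18 (limma adjusted p = 2.7e-08), and 1.31 ± 0.18 for ATG12. Part of both values is its fall in cells, from a mean of 488 in wild-type to 342 in ATG7-/- and 349 in ATG12-/-. The twin copy Gly-CCC-2-1 did not share this fall, with means of 260, 297 and 264, so these values depend on the copy. Gly-CCC-1-2 stood at 1.30 ± 0.22 and Gly-GCC-2-6 at 1.00 ± 0.22 for ATG7, where the largest value of a GCC entry was 1.53. GCC-2 also depends on the copy. In cells Gly-GCC-2-6 had means of 1399 in wild type and 1442 in ATG7-/-, and Gly-GCC-2-5 had 781 and 598. Gly-TCC-1-1 stood at 0.97 ± 0.25 for ATG7 and at 0.11 ± 0.25 for ATG12, where it was not called. The negative entry was Gly-GCC-4-1 in both, at -2.01 ± 0.60 and -1.79 ± 0.60. This gene reached the minimum through cell libraries alone and read 2.64 to 11.3 normalised reads in the 6 knockout vesicle libraries, so its vesicle change is poorly measured and the values are given as a description. Among the 30 members at the minimum in both compartments, 28 were positive and 0 negative for ATG7, and 6 and 0 for ATG12. The ATG7 calls of Gly-GCC-2-6 and Gly-TCC-1-1 were lost under total reads. Scaling by total reads left 11 positive calls for ATG7 and 2 for ATG12. The part of all calls that was positive went from 47.8% to 17.9% for ATG7 and from 54.4% to 6.94% for ATG12 with total reads. It was 63.7% for ATG7 with microRNA factors and 32.2% for ATG12 with factors from all features. The positive ATG12 count ran to 10 without wild-type vesicle replicate 2, wild-type cell replicate 3 or ATG7-/- cell replicate 1. The negative ATG12 call was lost without wild-type vesicle replicate 1, ATG12-/- vesicle replicate 1 or 2, wild-type cell replicate 2, or any 1 of the 3 ATG12-/- cell replicates.

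The makeup of the glycine pool by anticodon needs no scaling between libraries. Copies were averaged within an isodecoder and isodecoders summed. In wild-type vesicles CCC held 24.7% ± 2.61 of the pool (SD, n = 3), GCC 37.4% ± 1.73, TCC 37.6% ± 4.23 and CAC 0.247% ± 0.0464. In ATG7-/- vesicles the shares were 32.0% ± 1.19, 37.1% ± 1.89, 30.8% ± 3.06 and 0.139% ± 0.0360. In ATG12-/- vesicles they were 29.5% ± 1.67, 46.3% ± 1.65, 23.9% ± 0.131 and 0.301% ± 0.0459. All 3 ATG7-/- vesicle libraries held a larger CCC share than any wild-type vesicle library, and all 3 ATG12-/- vesicle libraries held a larger GCC and a smaller TCC share. In wild-type cells CCC held 38.5% ± 0.724, GCC 29.2% ± 1.17, TCC 22.0% ± 0.604 and CAC 10.3% ± 0.976. GCC held 36.3% ± 2.25 in ATG7-/- and 39.1% ± 0.736 in ATG12-/- cells, and CAC held 7.47% ± 1.25 and 6.84% ± 0.885. The CAC share of cells came mainly from Gly-CAC-chr1-17. The shares depend on how copies are counted. Summed over all gene copies, wild-type vesicles held 12.00% ± 1.22 CCC, 57.9% ± 2.00 GCC and 30.05% ± 3.12 TCC, and wild-type cells 15.3% ± 0.540, 51.8% ± 1.28 and 29.04% ± 0.372, with 3.88% ± 0.432 CAC. Counted so, CCC held 16.2% ± 0.495 in ATG7-/- vesicles, and GCC held 67.7% ± 1.39 and TCC 18.4% ± 0.309 in ATG12-/- vesicles, again without overlap with wild type. As log2 differences of the sums, ATG7-/- vesicles differed from wild type by 1.32 ± 0.20 in CCC, 0.94 ± 0.22 in GCC and 0.66 ± 0.52 in TCC (SD). ATG12-/- vesicles differed by 0.75 ± 0.17, 0.80 ± 0.20 and -0.15 ± 0.42. Unlike the shares, these differences depend on the scaling: with total reads they were 0.95, 0.56 and 0.28 in ATG7-/- and 0.40, 0.45 and -0.51 in ATG12-/-. These sums were given no test.

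Ratios of 2 isodecoders within a library put the same point without a size factor. An exact two-sided permutation test was used over libraries, on 16 ratios and comparisons. The smallest two-sided p that 3 libraries against 3 allow is 0.1, and 6 against 3 allow 0.0238. Neither can pass adjustment over 16 tests, so the adjusted values cannot decide whether a ratio differed. The log2 ratio of Gly-TCC-2-6 to Gly-CCC-2-2 was -0.36 ± 0.27 in wild-type, -1.15 ± 0.19 in ATG7-/- and -1.28 ± 0.09 in ATG12-/- vesicles (SD, n = 3). Neither knockout overlapped with wild type, and the 6 knockout libraries together differed by -0.85 (exact permutation p = 0.0238, adjusted 0.133). The ratio of Gly-CCC-2-2 to Gly-GCC-1-3 differed from wild type by 0.61 in ATG7-/- vesicles, without overlap, and by -0.01 in ATG12-/- vesicles. The ratio of Gly-TCC-2-6 to Gly-GCC-1-3 differed by -0.18 in ATG7-/- vesicles and by -0.93 in ATG12-/- vesicles, the latter without overlap. Between wild-type vesicles and cells the CCC-2 to GCC-1 ratio differed by 2.70 and the TCC-2 to CCC-2 ratio by -3.07. The ratio of Gly-CCC-1-2 to Gly-GCC-1-3 went the other way, at -1.20 without overlap, and in the knockout vesicles it differed from wild type by 0.32 in ATG7-/- and -0.35 in ATG12-/-, both without overlap. The TCC-2 to GCC-1 ratio between wild-type vesicles and cells was -0.37 with Gly-TCC-2-6 and 0.32 with the mean over copies, a change of sign. No ratio passed after adjustment, and with these group sizes none could.

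**Figure D4:**
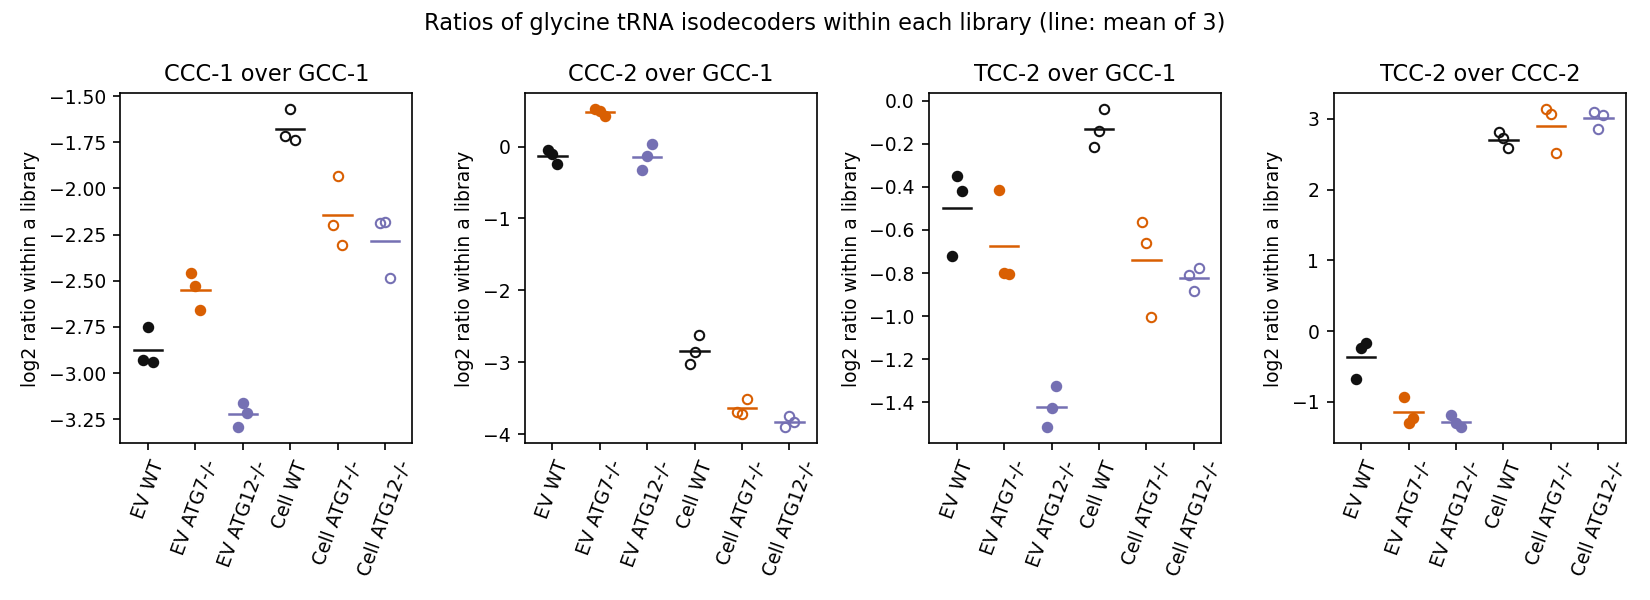
Log2 ratios of isodecoders within each of the 18 libraries, by group; each point is a library. In vesicles the TCC-2 to CCC-2 ratio of all 6 knockout libraries lies below the 3 wild-type libraries, and the CCC-2 to GCC-1 ratio is highest in ATG7-/- vesicles.

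Copies of an isodecoder were compared last. Of the 5 GCC-1 copies, 4 are in the chromosome 1 run and Gly-GCC-1-5 is at chr21:17454789-17454859. In vesicles the mean of the highest copy was 1.00 times that of the lowest in each genotype. In cells Gly-GCC-1-5 was the lowest copy, and the highest stood at 1.11 to 1.12 times its mean. GCC-2 fell into 2 levels. Relative to the median of the 4 other copies, Gly-GCC-2-6 stood at 2.03 ± 0.0287 in wild-type, 1.95 ± 0.0598 in ATG7-/- and 2.27 ± 0.105 in ATG12-/- vesicles (SD, n = 3). Gly-GCC-2-1 stood at 2.03 ± 0.0281, 1.95 ± 0.0617 and 2.28 ± 0.106. These 2 genes lie on chromosomes 17 and 1, and in vesicles the ratio varied little between libraries of a group. In cells Gly-GCC-2-6 stood at 1.66 ± 0.120 in wild-type, 2.22 ± 0.384 in ATG7-/- and 2.00 ± 0.188 in ATG12-/- libraries, and Gly-GCC-2-1 at 1.32 ± 0.0575, 1.73 ± 0.226 and 1.79 ± 0.117. The ratio of Gly-GCC-2-6 was thus lower in cells than in vesicles for wild type but not for ATG7-/-. TCC-2 showed another pattern. Gly-TCC-2-6 stood at 1.02 ± 0.0149 of the median of its 5 other copies in wild-type vesicles, but at 1.82 ± 0.0716 in wild-type, 1.84 ± 0.179 in ATG7-/- and 1.58 ± 0.0497 in ATG12-/- cells. In wild-type cell replicate 1 Gly-TCC-2-6 held 5018 reads, Gly-TCC-2-1 held 1952, and Gly-TCC-2-2 to Gly-TCC-2-5 held 2774 to 2776. Gly-TCC-2-6 and Gly-TCC-2-1 were thus told apart in cells, and the copies numbered between them still shared a value. The CCC-2 copies also differed more in cells. The ratio of Gly-CCC-2-2 to Gly-CCC-2-1 was 1.05 in vesicles of wild type, 1.88 in its cells, 1.15 in ATG7-/- cells and 1.33 in ATG12-/- cells.

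**Figure D5:**
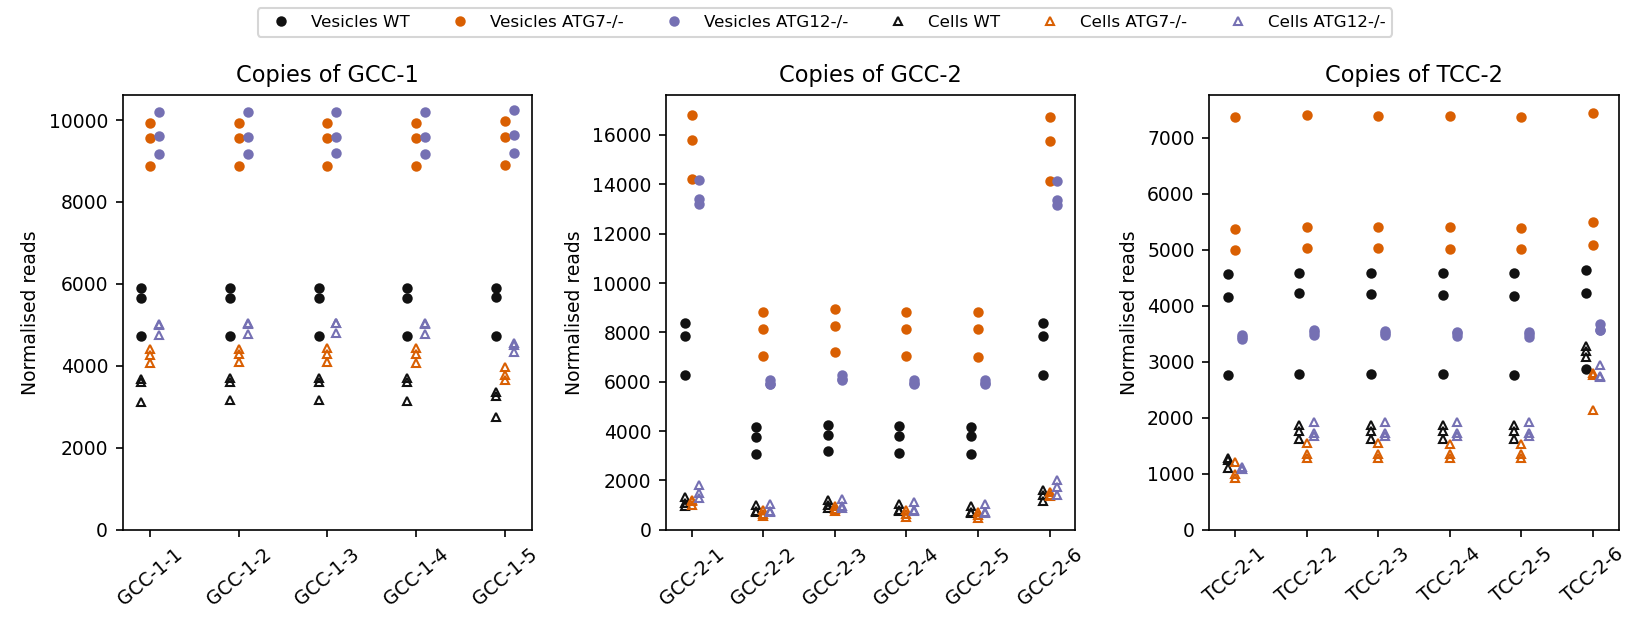
Normalised reads of each gene copy of GCC-1, GCC-2 and TCC-2 in the 18 libraries; filled circles are vesicles, open triangles cells, and colours mark the genotype. GCC-2-1 and GCC-2-6 stand above the other GCC-2 copies in vesicles, and TCC-2-6 stands above the other TCC-2 copies in cells, at 1.82 times their median in wild-type cells against 1.02 in wild-type vesicles.

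Some members were too scarce to test. Gly-CCC-3-1 had 15 reads over the 18 libraries, Gly-CCC-chr1-33 had 13, Gly-GCC-6-1 had 12 and Gly-CCC-8-1 had 54, and none of these entered a fit. Gly-CCC-8-1 read 14.5, 5.53 and 8.75 normalised reads in wild-type vesicles and 0 in all 3 wild-type cell libraries, where a count of 0 allows up to 3 reads per library by counting error only. Gly-GCC-4-1 was too low for the vesicle fit. Gly-CAC-chr1-94, Gly-CCC-chr1-104 and Gly-GCC-5-1 were too low for the cell fit, and in the vesicle fit none of them was called in either knockout. Gly-CCC-chr1-104 read 17.3, 6.91 and 10.2 normalised reads in wild-type vesicles and 1.91, 1.32 and 1.46 in wild-type cells.

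Other tRNAs are set beside these members without a test of the difference. Among 111 tested entries for Glu, Asp, Val, Lys and His, isotypes also known for 5′ fragments, 80 were higher and 0 lower in ATG7-/- vesicles, with a median of 0.56. In ATG12-/- vesicles 52 were higher and 15 lower, with 0.40. Among 315 entries of the remaining isotypes 134 were higher and 4 lower in ATG7-/- vesicles, with 0.39, and 63 higher and 20 lower in ATG12-/- vesicles, with 0.13. The glycine medians were 0.80 and 0.61, over entries that include nearly identical copies. As a share of tRNA reads, glycine was not higher in knockout vesicles, at 6.82% in wild-type, 6.20% in ATG7-/- and 6.74% in ATG12-/-. The medians therefore do not show that glycine tRNAs rose more than other tRNAs. Between wild-type vesicles and cells the medians were 1.25 for the 5 isotypes, 0.31 for the remaining ones and 1.10 for glycine. Here the glycine share of tRNA reads was lower in wild-type vesicles, at 6.82%, than in wild-type cells, at 18.8%.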

How the data were processed

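Small RNA libraries were made from vesicle and cell RNA with a SMARTer kit, 12 PCR cycles and single 50 bp reads. The submitters' processing notes name cutadapt 2.3, Bowtie2 2.3, bedtools and DESeq2 and the builds GRCh38 and hg38. Their order, the tRNA annotation and the handling of reads that match several genes are not given in the sources used here. The deposited values are a signal: reads per feature divided by 1 size factor per library. All values (100%, within 1e-06) were whole multiples of 1 read, worth 0.477 to 1.89 normalised reads, which gave the depth and the recovered reads for count tests.

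limma 3.58.1 (R 4.3.3; trend) was fitted to log2(value + 1) over features at 10 or more in at least 3 libraries of the fit: 9 vesicle libraries, 9 cell libraries or all 18. P-values were adjusted by Benjamini-Hochberg over all features, two-sided, with calls under 0.05. The text names 1 copy per tested isodecoder, that with the highest mean, and members that went against their anticodon; other copies are given by range, and those singled out were chosen after their values were seen. Members, lists and tests were chosen with earlier results of these data known. Alternatives were other scalings, pseudocounts of 0.5 and 5, no filter or a minimum of 50, edgeR 4.0.16 and DESeq2 1.42.0 on recovered reads, the replicate block, 1 row per isodecoder and leaving out each library. The scripts were tested on simulated data. Reads without molecular identifiers are not independent molecules, so the limit given for a count of 0 covers counting error only. No replicate pair agreed within sampling noise (chi-square per degree of freedom at least 5.56). Of the 38 members, 27 were placed by RefSeq symbol, and Gly-CCC-6-1 was left unplaced as its symbol is shared with another gene.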

Additional observations from a re-analysis of the deposited data

Results flagged for a closer look

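The change of a glycine tRNA under a knockout differed between vesicles and cells for the following entries, the ones of those called that the report describes by name, by limma's test of the vesicle change minus the cell change over all 18 libraries (log2, ± SE, Benjamini-Hochberg adjusted). For ATG7 the CCC entries were Gly-CCC-1-2 (1.30 ± 0.22, adjusted p = 5.2e-05), Gly-CCC-2-2 (1.93 ± 0.18, adjusted p = 2.7e-08), Gly-CCC-6-1 (1.25 ± 0.23, adjusted p = 0.00014), Gly-CCC-7-1 (1.17 ± 0.35, adjusted p = 0.0072), Gly-CCC-chr1-135 (1.25 ± 0.25, adjusted p = 0.00027), Gly-CCC-chr1-137 (1.29 ± 0.22, adjusted p = 4.9e-05) and Gly-CCC-chr1-2 (1.38 ± 0.30, adjusted p = 0.00068). The GCC entries were Gly-GCC-1-3 (0.51 ± 0.18, adjusted p = 0.019), Gly-GCC-2-6 (1.00 ± 0.22, adjusted p = 0.00065), Gly-GCC-3-1 (0.62 ± 0.25, adjusted p = 0.041) and Gly-GCC-4-1 (-2.01 ± 0.60, adjusted p = 0.0076). The TCC entries were Gly-TCC-1-1 (0.97 ± 0.25, adjusted p = 0.0029) and Gly-TCC-2-6 (0.95 ± 0.24, adjusted p = 0.0022), and the CAC entry was Gly-CAC-chr1-17 (0.62 ± 0.25, adjusted p = 0.043). For ATG12 the entries were Gly-CAC-chr1-17 (1.41 ± 0.25, adjusted p = 0.00044), Gly-CCC-2-2 (1.31 ± 0.18, adjusted p = 3.1e-05), Gly-CCC-6-1 (0.95 ± 0.23, adjusted p = 0.0049) and Gly-GCC-4-1 (-1.79 ± 0.60, adjusted p = 0.032). For ATG7, scaling by total reads lost the calls of Gly-GCC-1-3, Gly-GCC-2-6, Gly-GCC-3-1, Gly-CCC-7-1, Gly-CAC-chr1-17 and both TCC entries. Those of Gly-GCC-1-3, Gly-GCC-3-1 and Gly-CAC-chr1-17 were also lost with factors from all features, without a filter and by edgeR. Gly-GCC-1-3 lost its call without wild-type cell replicate 1, Gly-GCC-3-1 without any 1 of 7 libraries and Gly-CAC-chr1-17 without any 1 of 10. For ATG12, scaling by total reads lost the call of Gly-CCC-6-1. All but Gly-GCC-4-1 were more positive in vesicles than in cells. Gly-GCC-4-1 reached the minimum through cell libraries alone and had at most 14.5 normalised reads in any vesicle library, so its values are a description. The values of Gly-CCC-2-2 include a fall in cells that its twin copy Gly-CCC-2-1 did not share. Both tests use the same wild-type libraries.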

How the results depend on the processing

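At least 1 count of calls moved by over 1.5 times under 6 of 11 processing settings and without 12 of the 18 libraries. Scaling by total reads moved the most. It gave 10 higher and 2 lower members in ATG12-/- vesicles, 1 lower in ATG12-/- cells, 9 higher and 19 lower in wild-type vesicles against cells, 11 and 15 in ATG7-/-, and 10 and 21 in ATG12-/-. For the vesicle change minus the cell change it gave 11 positive for ATG7, and 2 positive and 5 negative for ATG12. It also reversed the vesicle-to-cell sign of single entries. In wild type these were Gly-GCC-1-3 (-0.88), Gly-GCC-5-1 (-0.071), Gly-TCC-2-6 (-1.25) and Gly-TCC-3-1 (-0.016). In ATG7-/- they were Gly-CCC-1-2 (-1.24), Gly-CCC-chr1-137 (-1.32), Gly-GCC-1-3 (-0.84), Gly-GCC-5-1 (-0.62) and Gly-TCC-2-6 (-0.77). In ATG12-/- they were Gly-CAC-chr1-94 (-0.47), Gly-CCC-1-2 (-2.08), Gly-GCC-1-3 (-1.14), Gly-GCC-5-1 (-1.27), Gly-TCC-2-6 (-1.74) and Gly-TCC-3-1 (-0.25). Gly-TCC-2-2 to Gly-TCC-2-5 turned negative in wild type and ATG12-/-, and the other GCC-1 copies in all 3 genotypes. The cause was not tested.

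With 1 row per isodecoder there are fewer entries to call: 12 were higher in ATG7-/- and 8 in ATG12-/- vesicles, 8 were lower between the knockouts, 2 were higher in ATG12-/- cells, and 9, 12 and 9 were higher in vesicles than cells, by genotype in the same order as above. The vesicle change minus the cell change was then positive for 13 under ATG7 and 3 under ATG12. The share of all features called in that fit was not computed, so these counts cannot be set beside the shares above. With microRNA factors 20 were lower in ATG7-/- cells, and 1 was higher and 5 lower in ATG12-/- cells. DESeq2 called 6 higher in ATG7-/- cells, edgeR and DESeq2 each 1 lower in ATG12-/- cells, and edgeR 3 positive for the ATG12 difference. Without a filter, 0 were negative there. Leaving out single libraries gave 0 to 2 lower in ATG12-/- vesicles, 0 to 1 higher and 0 to 4 lower in ATG7-/- cells, 1 to 7 higher and 1 to 5 lower in ATG12-/- cells, and 4 to 10 positive and 0 to 1 negative for the ATG12 difference. Lower calls between the knockouts ranged from 14 to 18. The 2 libraries left in a group are assumed to vary like the other groups.

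The replicate numbers showed at most weak pairing of the samples, which does not settle whether they were paired. Deviations of same-numbered libraries correlated at -0.21 to 0.14 over 9 pairs of vesicle groups and at -0.22 to 0.19 over 9 pairs of cell groups. Of the pairings of all groups, 19 of 45 matched best by number. With the replicate block 28 members were higher in ATG7-/- and 17 in ATG12-/- vesicles, 18 were lower between the knockouts, 3 were lower in ATG7-/- cells, and 27 and 8 differences were positive for ATG7 and ATG12.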
